A study of Homo sapiens with 12 samples.

Results

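Transcript levels in HepG2 cells after 10 and 30 min of insulin were compared with the levels at 0 and 5 min, with the 4 RNA-seq libraries of 10 and 30 min pooled as the later side and the 4 libraries of 0 and 5 min pooled as the earlier side. These 8 libraries are part of the 10 RNA libraries in a series of 12 samples, and were chosen by the time in their titles, with 2 replicates at each time. Rows of the count table without a gene name, which are ERCC spike-in RNAs, were left out. HepG2 is a line grown from a human liver cancer, and all 8 libraries share the cell line, the culture in EMEM and the 16 h starvation step given in the labels and differ in the minutes of insulin. The titles give the minutes, whereas the treatment text gives 3 nM insulin and 5 min for every RNA library, the 0 min ones included. The labels name no separate cultures, whereas the paper states that RNA-seq was done once, on samples it calls biologically independent. The p-values measure the spread between these libraries within that experiment. Pooling 2 times on a side puts the difference between those times into the spread.

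Insulin acts on hepatocytes through a receptor kinase that feeds 2 main branches. The branch through PI3K and AKT phosphorylates the FOXO transcription factors, which then leave the nucleus, and lowers transcripts that FOXO drives, such as those for glucose production and for IGF-binding protein. The branch through RAS and ERK induces immediate early genes and also feedback inhibitors of its own signal, the Sprouty proteins and the dual-specificity phosphatases. The lists of genes described here follow these branches and the BMP and TGF-beta pathway, whose SMAD factors induce SMAD7, an inhibitor of the pathway, and the ID genes, which block basic helix-loop-helix factors.

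Reads counted on genes ranged from 20437471 to 28087570 in 7 of the 8 libraries and reached 45005769 in 0 min replicate 2. Levels are in CPM, reads on a gene divided by the library total (in units of 1e6 reads), with TMM factors applied to that total. All 15 hepatocyte markers looked at were expressed, albumin (ALB) at a mean of 18021 CPM. Of the 16 markers of other cell types, PTPRC and MS4A1 had no count in any of the 8 libraries and 6 were high enough to be tested, LYZ at a mean of 5642 CPM among them. Spike-ins took 1.59% to 1.72% of counts on the earlier side and 1.66% to 2.36% on the later side. The share was 1.63% ± 0.06 (SD, n = 4) against 1.90% ± 0.32 (SD, n = 4), and the exact two-sided permutation test gave p = 0.0571, where the smallest p it can give is 0.0286.

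A small set of genes passed the test. Of 13398 genes tested, 20 were higher (0.149%) and 38 were lower (0.284%) at 10 and 30 min, at an adjusted p under 0.05 in edgeR's quasi-likelihood test. Among genes averaging 5 CPM or more, those that rose were led by SMAD7, MYLIP, ARRDC3 and ID1, and those that fell by HNRNPU-AS1, RSRP1, SPRY4 and C10orf10. The changes were small, with absolute log2 fold changes from 0.15 to 0.88 and a median of 0.36, and 14 of the 58 genes exceeded 0.5. In 57 of the 58 genes the 4 libraries of one side did not overlap the 4 of the other, the exception being BIRC3. In all 58 the means at 10 and at 30 min both lay on the same side of the means at 0 and 5 min, which in those 57 follows from the lack of overlap. The genes were called on these same 8 libraries, so neither count is a separate result. Among all genes tested, 2.16% were higher and 3.14% lower without overlap.

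**Figure D1:**
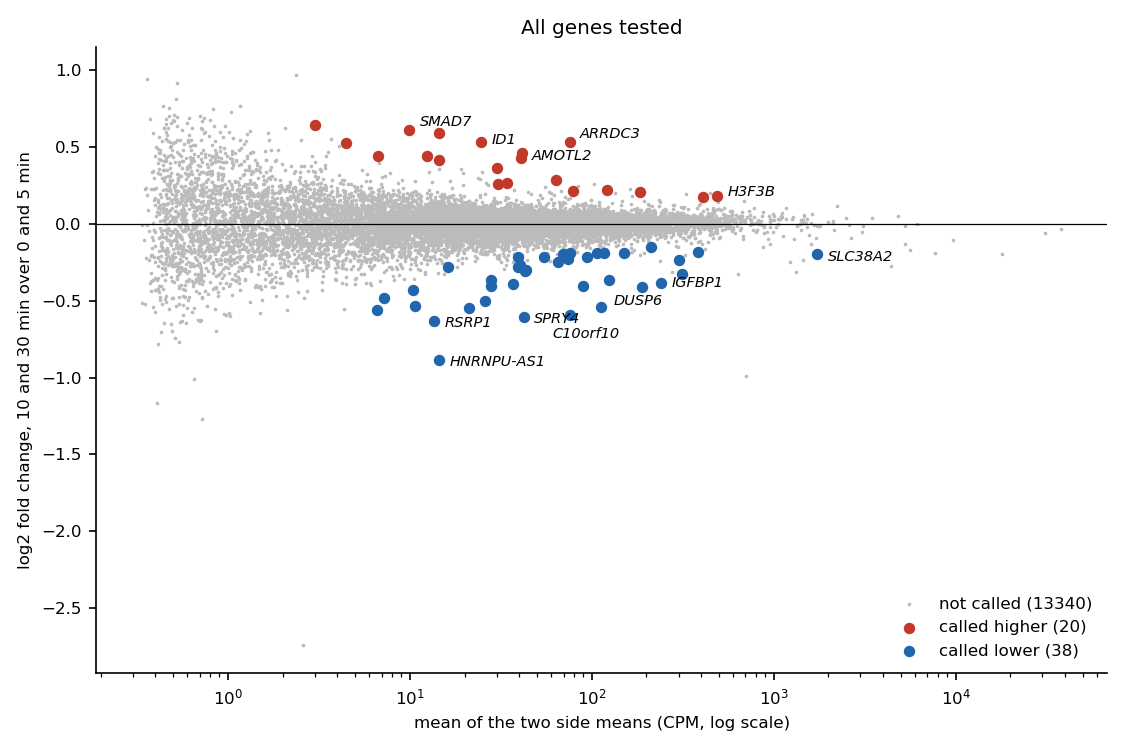
Log2 fold change of 10 and 30 min over 0 and 5 min (vertical axis) against the mean level in CPM (horizontal axis, log scale) for all 13398 genes tested, 1 point a gene. The 20 genes called higher (red) and 38 called lower (blue) sit at the edge of the cloud, and HNRNPU-AS1 lies lowest among them at -0.88.

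At an unadjusted p under 0.05 there were 1097 genes, where 669.9 would pass by the threshold alone. The number of changed genes turned on single libraries. It was 33 without 0 min replicate 2, 35 without 5 min replicate 1, 33 without 10 min replicate 1 and 29 without 30 min replicate 1, and the number lower was 24 without 10 min replicate 2. It was 18 without the deepest library, 0 min replicate 2, and the one with the highest spike-in share, 10 min replicate 2. In all, 26 of the 58 genes passed in all 8 fits that left out 1 library. With libraries scaled to their spike-in totals instead of TMM it was 24, with 0 higher and 24 lower. With DESeq2 it was 95. With limma on log2(TPM + 1) only 4 genes passed, all of them lower.

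SMAD7, ID1 and ID2, from the list of BMP and TGF-beta targets, rose. SMAD7 (chromosome 18, 46446223 to 46477081, minus strand, hg19) stood at 7.11, 7.38, 9.12 and 7.94 CPM in the libraries of the earlier side, given in the order 0 min replicates 1 and 2, then 5 min replicates 1 and 2. It stood at 11.1, 11.6, 12.4 and 13.1 CPM on the later side, in the order 10 min replicates 1 and 2, then 30 min replicates 1 and 2, an order kept for every gene that follows. All 4 later libraries lay above the earlier ones, and the log2 fold change was 0.61 ± 0.09 (SE, adjusted p = 0.00147), a 1.53-fold rise. ID1, whose product sequesters E proteins, was at 18.4, 22.5, 20.3 and 18.7 CPM before and 28.7, 27.9, 30.0 and 30.3 CPM after, again without overlap, a log2 fold change of 0.53 ± 0.06 (adjusted p = 2.98e-04). ID2, a close relative of ID1, went from 34.7 ± 2.74 to 46.8 ± 3.08 CPM (SD, n = 4 each), at a log2 fold change of 0.43 ± 0.06 (adjusted p = 0.0011). These were the 3 of 14 tested members that passed, and 0 were called lower. Of the 14, 9 had a log2 fold change above 0 and 5 below, beside 7064 and 6334 of all 13398 genes tested. The lowest of the list was at -0.24, and 1 member was lower without overlap of the sides. The median log2 fold change of the list was 0.08, beside 0.0044 over all genes tested. ID3 also did not overlap between the sides (12.6 ± 1.62 against 16.3 ± 0.68 CPM) but had an adjusted p of 0.0746. SMAD6, an inhibitory SMAD like SMAD7, had a log2 fold change of 0.11 and did not pass. KLF11, a TGF-beta-inducible repressor outside this list, rose from 31.2 ± 0.79 to 37.5 ± 2.52 CPM (adjusted p = 0.0276), a call kept in 2 of the 8 fits that left out 1 library (highest adjusted p 0.127).

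ARRDC3, an alpha-arrestin that helps bring membrane proteins into endosomes, was at 61.4, 56.4, 67.7 and 62.3 CPM on the earlier side and at 91.5, 91.5, 86.6 and 88.6 CPM on the later side. The highest earlier library lay well below the lowest later one, and the log2 fold change was 0.54 ± 0.05 (adjusted p = 1.54e-05). Of 5 tested alpha-arrestins, 1 rose and 0 fell, and the median log2 fold change was 0.13. TXNIP, an alpha-arrestin that limits glucose uptake, was at 269.1 ± 10.6 against 294.1 ± 3.79 CPM, and ARRDC4 at 34.5 ± 2.13 against 40.6 ± 3.67 CPM. Neither TXNIP nor ARRDC4 passed, at an adjusted p of 0.181 each, although their sides did not overlap.

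MYLIP encodes the ubiquitin ligase IDOL, which marks the LDL receptor for degradation. It was at 11.9, 9.79, 12 and 12.7 CPM and then at 16.7, 17.9, 16.3 and 18.3 CPM. The sides were apart, and the log2 fold change was 0.59 ± 0.08 (adjusted p = 0.001). AMOTL2, an angiomotin of cell junctions that binds YAP, rose from 34.7 ± 1.78 to 47.8 ± 2.33 CPM (log2 fold change 0.46 ± 0.05, adjusted p = 7.99e-05). Further rises were of smaller size or lower level. RBM3, a cold-inducible RNA-binding protein, H3F3B, which encodes histone H3.3, MIDN, FOXQ1 and LINC00673 had log2 fold changes of 0.19 to 0.26. The H3.3 sequence has near copies in the genome, so the value of H3F3B is uncertain. KLHL31 and SLC25A21-AS1 were called at a mean under 5 CPM, at 2.36 against 3.67 CPM and at 3.64 against 5.23 CPM. These 7 were picked once their values had been seen.

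Zinc finger genes whose symbol is ZNF and a number made up 4 of the 12 largest rises and 2 of the 12 largest falls. Both rankings cover genes averaging 5 CPM or more. ZNF367, ZNF844, ZNF57 and ZNF703 rose with log2 fold changes of 0.36 to 0.45, while ZNF626 fell by 0.48 and ZNF566 fell by 0.43 on the log2 scale. Over all tested genes, symbols of the form ZNF and a number made up 3.02%. ZNF844, ZNF57, ZNF626 and ZNF566 belong to the large KRAB family, whose members have close copies on chromosome 19 that can share reads, so their single values are uncertain. From TPM, the log2 fold change of ZNF626 was -0.17 and did not pass. ZNF844 passed in none of the 8 fits that left out 1 library. ZNF57 passed in all 8, and its libraries read 11.3, 12.2, 12.4 and 13.8 CPM before and 16.1, 17.1, 16.5 and 16.6 CPM after.

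**Figure D2:**
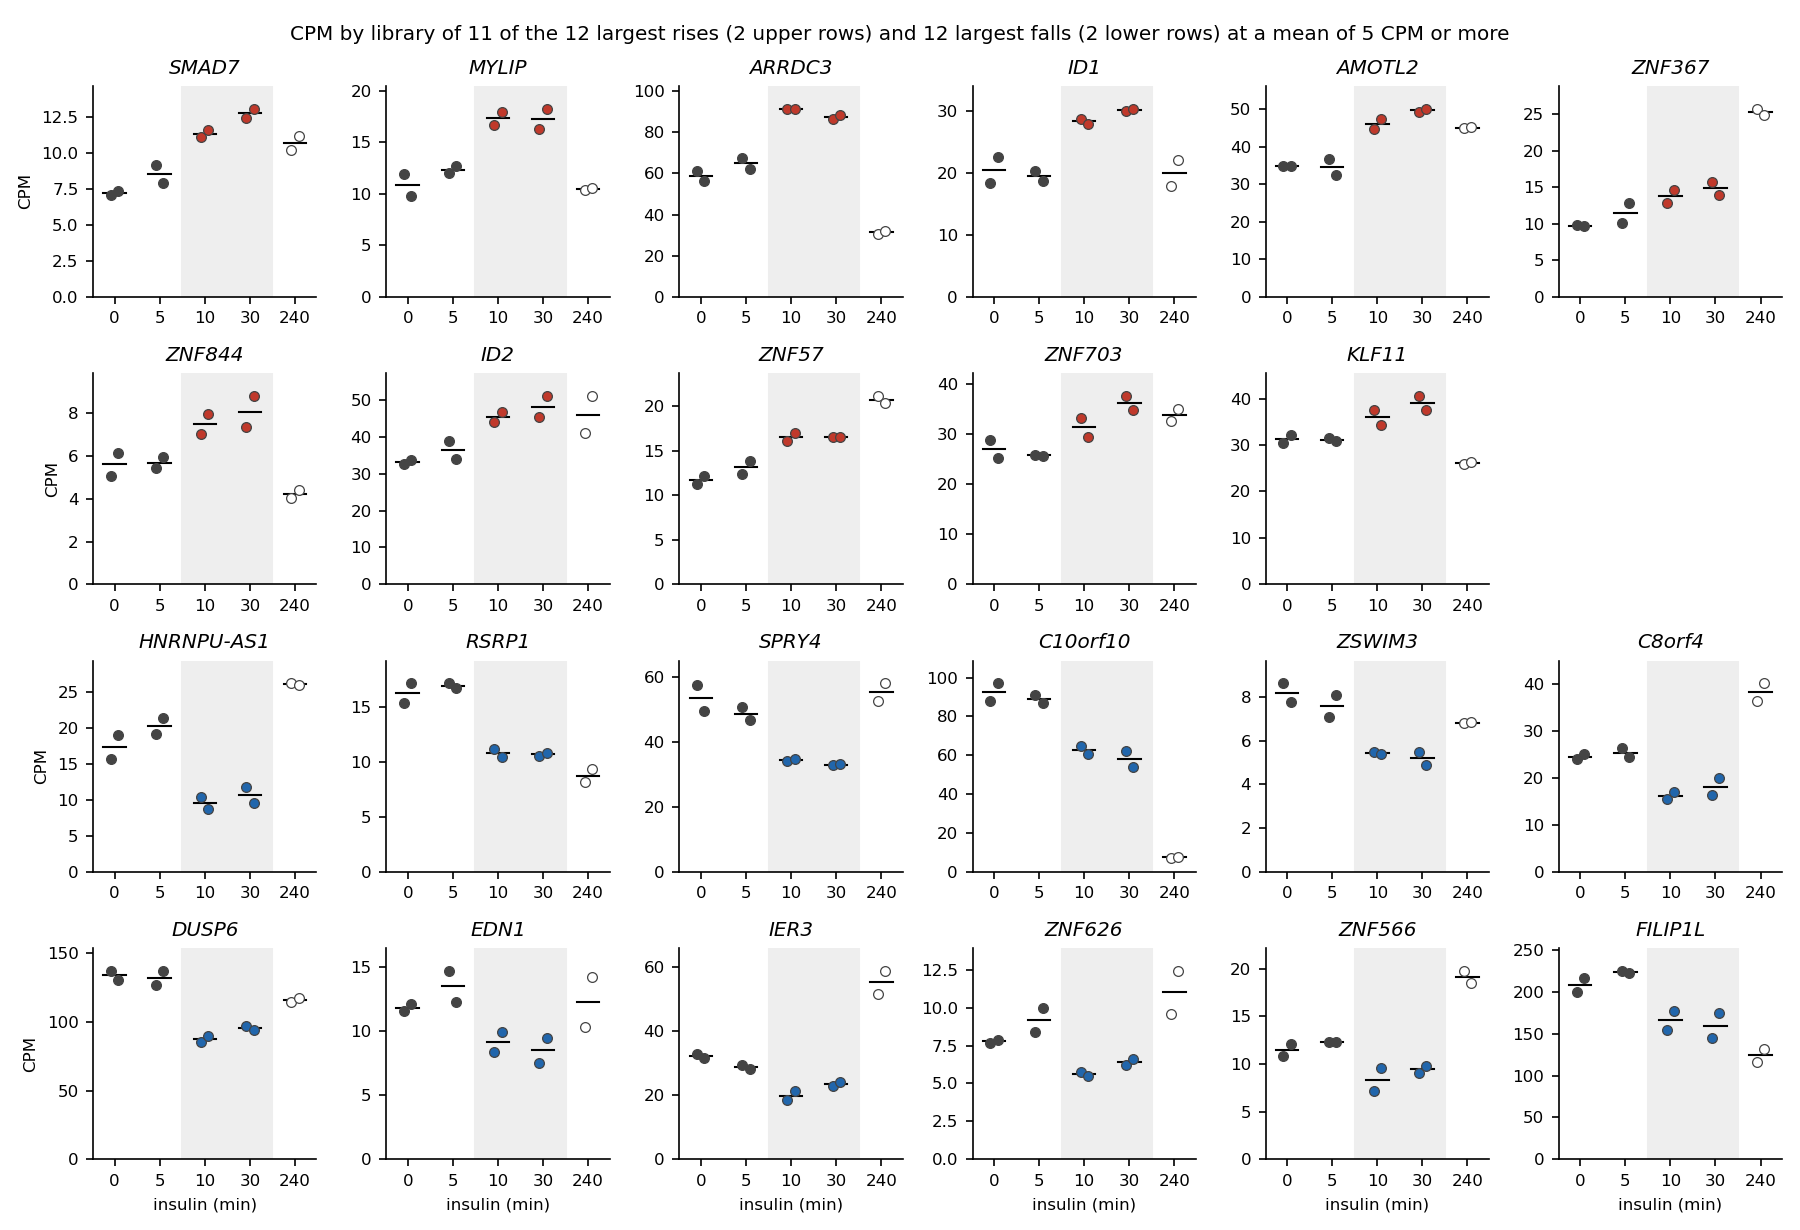
CPM in each library (vertical axes, from 0) by minutes of insulin (horizontal axes) for 11 of the 12 largest rises (red at 10 and 30 min) and the 12 largest falls (blue) at a mean of 5 CPM or more, 1 point a library and a line at each mean of 2. Dark points are 0 and 5 min and open points 240 min. In each gene all 4 points on the shaded later side are clear of the 4 dark ones, which the rule that picked these genes required.

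SPRY4, DUSP6 and IER3, from the list of ERK feedback genes, fell. SPRY4, a Sprouty protein that restrains receptor tyrosine kinase signals, was at 57.5, 49.6, 50.8 and 46.6 CPM on the earlier side and at 34, 34.7, 32.7 and 33.1 CPM on the later side. The later libraries were close together and all below the earlier ones, at a log2 fold change of -0.60 ± 0.06 (adjusted p = 2.05e-05). DUSP6, the phosphatase that inactivates ERK in the cytoplasm, read 137.3, 130.8, 126.9 and 137.1 CPM and then 85.4, 89.7, 97.0 and 93.9 CPM. Its log2 fold change was -0.54 ± 0.04 (adjusted p = 7.05e-06), the lowest adjusted p of the genes named. IER3, an ERK-responsive early gene linked to cell survival, was at 32.9, 31.4, 29.5 and 27.9 CPM and then at 18.3, 21.2, 22.8 and 24.2 CPM (log2 fold change -0.50 ± 0.07, adjusted p = 0.00209). Of 18 tested members of the ERK feedback list, these 3 fell and 0 rose, and the list had a median log2 fold change of -0.06. In all, 14 of the 18 had a log2 fold change below 0 and 4 above, beside 6334 and 7064 of all 13398 genes tested. SPRY2, SPRED1, SPRED2, ETV4 and ETV5, other outputs of the same pathway, had log2 fold changes between -0.08 and -0.02. DUSP5 was at -0.36 and DUSP4 at -0.21, and neither passed (adjusted p = 0.451 and 0.833). DUSP1 had a pooled value of 0.01 that joined unlike times. It read 14.1 and 15.9 CPM at 10 min, below every earlier library, and 20.3 and 20.9 CPM at 30 min, above every one.

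MCL1 and CTGF were the immediate early genes that fell. Of 24 tested, 0 rose and 2 fell, and the median log2 fold change was -0.01. MCL1, an anti-apoptotic BCL2 relative, read 326.2, 321.1, 331.8 and 323.7 CPM and then 272.6, 285.4, 267.5 and 283.8 CPM. The gap between the sides exceeded the spread within each, at a log2 fold change of -0.23 ± 0.03 (adjusted p = 0.0017). CTGF, a secreted matrix protein now also named CCN2, fell from 408 ± 5.29 to 360 ± 14.1 CPM (adjusted p = 0.0251) and passed in 4 of the 8 fits that left out 1 library. EGR1, the early growth response transcription factor, was at 25.7, 20.3, 21.5 and 21.5 CPM on the earlier side, at 14.4 and 15.3 CPM at 10 min and at 47.2 and 34.2 CPM at 30 min. The 10 min libraries lay below every earlier library and the 30 min libraries above, and the pooled log2 fold change was 0.34 ± 0.26 (adjusted p = 0.832). Without the 10 min libraries it was 0.89 (adjusted p = 0.00216), and without the 30 min libraries -0.57 (adjusted p = 0.00887). FOS, the AP-1 subunit, had a log2 fold change of 0.97 ± 0.31 at a level of 1.65 ± 0.65 CPM before and 3.10 ± 1.51 CPM after (adjusted p = 0.315).

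IGFBP1, a FOXO-driven liver gene whose secreted product binds insulin-like growth factors, fell. Its libraries read 268.6, 288.2, 264.4 and 270.4 CPM and then 187.4, 213.9, 221.2 and 216.1 CPM, at a log2 fold change of -0.38 ± 0.05 (adjusted p = 3.53e-04). It was the only one of 14 tested FOXO targets to pass, and the median of that list was -0.01. Of the 14, 7 had a log2 fold change above 0 and 7 below, beside 7064 and 6334 of all 13398 genes tested. The highest of the list was IRS2 at 0.39, which did not pass (adjusted p = 0.524). BCL6, a repressor driven by FOXO, had sides that did not overlap (71.6 ± 5.79 against 61.6 ± 2.42 CPM, adjusted p = 0.0937). C10orf10, now named DEPP1 and also known as a FOXO-induced gene, was not on the list. It read 87.8, 97.0, 91.1 and 86.9 CPM and then 64.5, 60.6, 62.0 and 54.0 CPM. No later library came near the lowest earlier one, and the log2 fold change was -0.59 ± 0.05 (adjusted p = 1.27e-05).

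The genes of insulin's metabolic program did not pass. None of 8 gluconeogenic, 14 lipogenic, 22 cholesterol synthesis or 30 insulin signal genes tested was called, and the medians of these lists lay between -0.01 and 0.00. INSR, the insulin receptor, was at 214.8 ± 10.7 and 208.8 ± 5.36 CPM (log2 fold change -0.04 ± 0.04). FASN, fatty acid synthase, was at 981 ± 145 and 1019 ± 120 CPM (0.06 ± 0.09). PCK1, the gluconeogenic PEPCK enzyme, was at 12 ± 0.42 and 12.5 ± 1.4 CPM (0.07 ± 0.08), and IRS2, an adaptor of the receptor, at 1.73 ± 0.36 and 2.23 ± 0.28 CPM (0.39 ± 0.16, adjusted p = 0.524). PPARGC1A, the coactivator PGC-1alpha, had non-overlapping sides at 36.7 ± 2.31 and 31.3 ± 1.59 CPM and an adjusted p of 0.0996. None of 19 NRF2 targets or 13 heat shock genes tested passed either, and the 15 mitochondrially encoded genes were not analysed here.

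CCL20, BIRC3 and ICAM1, from the list of NF-kappaB targets and chemokines, fell. CCL20, a chemokine, read 41.5, 41.5, 39.5 and 46.1 CPM and then 28.4, 29.4, 34.4 and 36.4 CPM (log2 fold change -0.39 ± 0.07, adjusted p = 0.0141). BIRC3, an inhibitor of apoptosis induced by NF-kappaB, went from 32.0 ± 2.94 to 24.3 ± 3.14 CPM (adjusted p = 0.0276), with 30 min replicate 2 at 28.6 CPM above 0 min replicate 1 at 27.8 CPM. ICAM1, an adhesion molecule, went from 161 ± 4.93 to 141.4 ± 4.19 CPM (adjusted p = 0.0209). These 3 of 14 tested members fell, 0 rose, and the list median was -0.13. All 3 calls rested on single libraries. CCL20 passed in 5 of the 8 fits that left out 1 library, and was lost without 0 min replicate 2, 10 min replicate 1 or 10 min replicate 2 (highest adjusted p 0.0769). BIRC3 and ICAM1 passed in 3 of the 8 each, with adjusted p up to 0.141 and 0.112. NFKBIA, the inhibitor of NF-kappaB, had a log2 fold change of 0.25 ± 0.06 and did not pass (adjusted p = 0.0969).

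Among splicing control genes and nuclear RNAs 1 fell and 1 rose. RSRP1, an arginine and serine rich protein, read 15.4, 17.1, 17.1 and 16.7 CPM and then 11.2, 10.4, 10.5 and 10.8 CPM (log2 fold change -0.63 ± 0.06, adjusted p = 4.49e-05). The later libraries lay within 1 CPM of each other. SRSF6, a splicing factor, rose from 384 ± 10.7 to 433 ± 9.24 CPM (0.18 ± 0.03, adjusted p = 0.0251). SRSF6 passed in 1 of the 8 fits that left out 1 library, with adjusted p up to 0.126, and with ERCC scaling its log2 fold change was -0.01. The 25 tested genes of that list had a median of -0.02. Of 10 mRNA decay factors, TOB2, which recruits a deadenylase, fell from 74.6 ± 1.78 to 65.2 ± 0.90 CPM (adjusted p = 0.0173), a call kept in 3 of the 8 fits, and the median was -0.04.

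**Figure D3:**
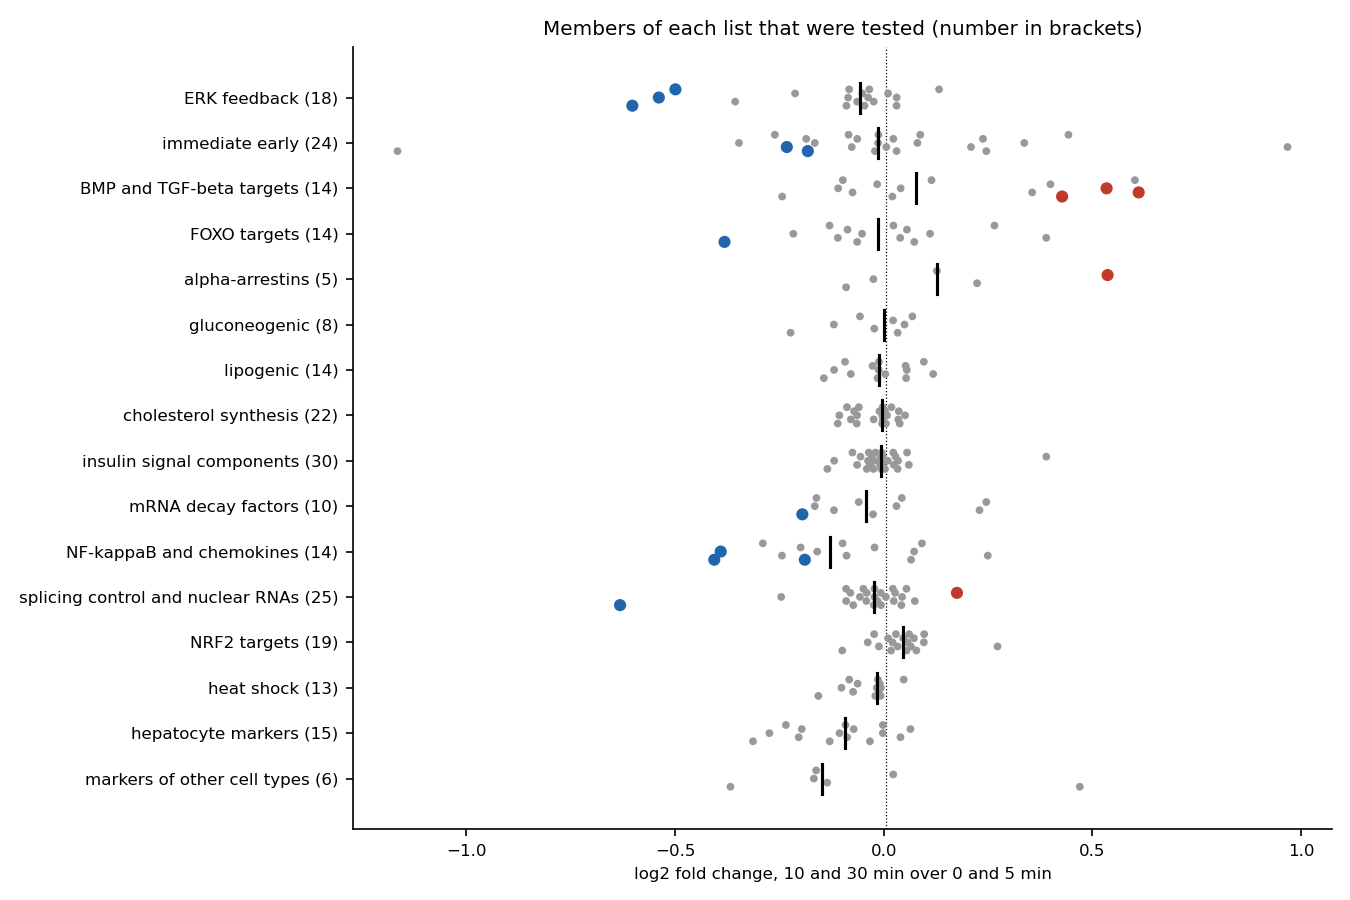
Log2 fold change of 10 and 30 min over 0 and 5 min (horizontal axis) for each tested member of 16 gene lists (rows, with the number tested), where red and blue points passed the test upward and downward and grey points did not. Black bars are list medians and the dotted line is the median of all genes tested (0.0044). The BMP and TGF-beta row holds 3 red points, and the ERK feedback and NF-kappaB rows hold 3 blue points each.

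HNRNPU-AS1 had the largest fall. Its libraries read 15.6, 19.0, 19.2 and 21.3 CPM and then 10.5, 8.70, 11.8 and 9.49 CPM, a log2 fold change of -0.88 ± 0.10 (adjusted p = 8.66e-05). The files place it on chromosome 1 from 245003940 to 245010243 (hg19) on the minus strand, which is also the strand of HNRNPU, a nuclear RNA-binding protein, at 245013602 to 245027827. It lies 3.36 kb past the listed end of HNRNPU, and the GENCODE annotation of GRCh37 draws HNRNPU itself from 245003940 to 245027862, over the whole of it. Strand therefore does not separate its reads from longer HNRNPU transcripts. HNRNPU was at 865 ± 9.72 and 860.1 ± 8.09 CPM (log2 fold change -0.01 ± 0.03).

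Other falls spanned several kinds of gene. EDN1, the precursor of the vasoconstrictor endothelin-1, read 11.6, 12.1, 14.7 and 12.3 CPM and then 8.33, 9.97, 7.54 and 9.44 CPM (log2 fold change -0.53 ± 0.10, adjusted p = 0.0136), and it passed in 5 of the 8 fits that left out 1 library. C8orf4, now named TCIM, went from 24.9 ± 1.03 to 17.2 ± 1.96 CPM (adjusted p = 5.24e-04). FILIP1L, a filamin A interacting protein, went from 216 ± 11.3 to 163 ± 15.3 CPM (adjusted p = 0.001), and ZSWIM3 from 7.89 ± 0.65 to 5.31 ± 0.29 CPM (adjusted p = 0.00401). Outside the naming rule, and picked after their values were seen, were NR0B2, the repressor SHP of bile acid synthesis, TRIB1, a pseudokinase that scaffolds a ubiquitin ligase, and DUSP16, a phosphatase of JNK. NR0B2 had a log2 fold change of -0.37, TRIB1 one of -0.40 and DUSP16 one of -0.15, the smallest of the 58. The remaining falls, named only to account for all 38, were ENC1, ZFX, HS3ST3B1, DCUN1D3, PDP2, MED17, RAPGEF5, WEE1, C16orf72, TMEM39A, USP37, USP31 and CCNT1, at log2 fold changes of -0.36 to -0.19. Among them are the kinase WEE1, which delays entry into mitosis (80.3 ± 3.37 against 68.5 ± 1.43 CPM), the pyruvate dehydrogenase phosphatase subunit PDP2 (43.0 ± 2.41 against 35.3 ± 3.00 CPM), and CCNT1 and MED17, which belong to the elongation factor P-TEFb and to the Mediator complex (81.1 ± 2.17 against 71.3 ± 2.46 CPM and 44.1 ± 2.53 against 36.6 ± 2.37 CPM).

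Changed genes spanned fewer bases than the genes tested did at the median. On hg19, the median span was 10.9 kb for the 20 genes that rose and 14.7 kb for the 38 that fell, beside 26.1 kb over all genes tested. The canonical transcript in GENCODE, found for 19, 37 and 12797 genes of the 3 sets, had a median of 4, 4 and 9 exons. The median length of its exons was 3.34, 4.80 and 3.25 kb. Median levels of the 3 sets also differed, at 32.5, 60.2 and 25.1 CPM, and the part of level in these differences was not tested.

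The bases before the start site are shown for the largest rises and falls with a RefSeq promoter, from the 250 bases upstream of the start in the RefSeq table of GRCh38.p14, 5′ to 3′ on the strand of the gene. Capitals mark matches to the motifs searched on both strands, which in these windows are GGCGCC, a GC-rich element of BMP-responsive genes, TGTTTAC, the FOXO core, and TGACG, a part of the cAMP response element (CRE). SMAD7 and MYLIP rose, and RSRP1, SPRY4 and C10orf10 fell.
SMAD7 (chr18:48950966-48951215, minus strand): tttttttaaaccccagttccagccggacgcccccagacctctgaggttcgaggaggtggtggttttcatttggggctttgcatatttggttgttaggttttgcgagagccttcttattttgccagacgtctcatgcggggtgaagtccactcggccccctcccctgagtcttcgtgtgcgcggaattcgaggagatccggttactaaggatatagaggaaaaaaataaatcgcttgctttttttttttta
MYLIP (chr6:16128836-16129085, plus strand): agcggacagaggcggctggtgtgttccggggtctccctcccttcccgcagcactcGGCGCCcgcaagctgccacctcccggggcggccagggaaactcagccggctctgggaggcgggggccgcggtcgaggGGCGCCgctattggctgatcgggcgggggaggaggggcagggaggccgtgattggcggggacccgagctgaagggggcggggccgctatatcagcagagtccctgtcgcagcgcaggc
RSRP1 (chr1:25338255-25338504, minus strand): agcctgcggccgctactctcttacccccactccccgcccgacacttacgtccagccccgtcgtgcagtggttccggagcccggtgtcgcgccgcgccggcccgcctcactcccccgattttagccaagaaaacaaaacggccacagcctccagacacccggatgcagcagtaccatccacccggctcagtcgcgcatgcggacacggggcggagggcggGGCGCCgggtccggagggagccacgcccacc
SPRY4 (chr5:142324248-142324497, minus strand): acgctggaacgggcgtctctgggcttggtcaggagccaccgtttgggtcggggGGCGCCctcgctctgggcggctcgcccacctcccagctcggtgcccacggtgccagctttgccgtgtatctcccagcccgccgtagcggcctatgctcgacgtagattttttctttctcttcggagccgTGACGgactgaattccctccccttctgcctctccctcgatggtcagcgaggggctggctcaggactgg
C10orf10 (chr10:44978810-44979059, minus strand): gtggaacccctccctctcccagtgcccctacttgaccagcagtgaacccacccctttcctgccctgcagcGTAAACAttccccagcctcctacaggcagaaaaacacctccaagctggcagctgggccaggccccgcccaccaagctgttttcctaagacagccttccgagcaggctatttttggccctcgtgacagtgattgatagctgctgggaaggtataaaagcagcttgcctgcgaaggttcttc

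A promoter of 300 bases, from 250 before to 50 after the start, was found for 17 of the 20 genes that rose, 27 of the 38 that fell and 10480 of the 13398 tested. IGFBP1, the called member of the FOXO list, was among the genes that fell without one, so the shares leave it out. The FOXO core TGTTTAC was in 0 of 17 and in 2 of 27 (7.41%), beside 2.36% of all, and the 2 were C10orf10 and GDF15, a stress-induced cytokine that fell from 47.2 ± 4.16 to 38.3 ± 1.66 CPM. In C10orf10 it reads GTAAACA on the strand shown, 180 bases before the start. The element GGCGCC was in 3 of 17 (17.6%) and 5 of 27 (18.5%), beside 30.1% of all. The ETS core CCGGAAG was in 1 of 17 (5.88%) and 5 of 27 (18.5%), beside 19.3%. The short site TGACG, which is part of the full CRE TGACGTCA, was in 3 of 17 (17.6%) and 12 of 27 (44.4%), beside 33.8%. The full CRE was in 0 and 1 genes (3.24% of all), the CArG box in 0 and 1 (1.04%), the AP-1 site TGANTCA in 0 and 2 (4.48%), the E-box CACGTG in 1 and 2 (10.0%), and the SMAD pair GTCTAGAC in 0 and 0 (0.153%). A match describes these letters only.

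The level at 240 min, which the pooled comparison did not use, was read against 10 and 30 min in a model of 5 times. In that comparison 22.5% of 13852 genes were called higher and 21.2% lower, so a call there is common. The 58 genes had been chosen by their difference between the same 8 libraries, so their place at 240 min is given as a description. Of the 20 genes that rose, 13 (65%) lay above all 0 and 5 min libraries at 240 min, 3 (15%) lay below all of them and 4 overlapped. Over all genes tested, 27.8% lay above and 26% below. ARRDC3 ended at 30.7 and 32.2 CPM at 240 min, under every library of 0 and 5 min, a log2 fold change of -1.51 ± 0.06 from the later side (adjusted p = 3.11e-13). ID1 was at 17.8 and 22 CPM, from just under the lowest earlier library to within the earlier range, and MYLIP at 10.3 and 10.6 CPM, within it, while ZNF367 went on to 25.8 and 24.8 CPM. SMAD7 stayed at 10.2 and 11.1 CPM, and its change from the later side of -0.17 ± 0.09 did not pass (adjusted p = 0.137).

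Of the 38 genes that fell, 18 (47.4%) lay below all 0 and 5 min libraries at 240 min, 11 (28.9%) above and 9 overlapped. Over all genes tested 26% lay below and 27.8% above, so the share above was near that of all genes. C10orf10 was at 7.24 and 7.48 CPM at 240 min, a further log2 fold change of -3.04 ± 0.09 (adjusted p = 6.73e-15), and IGFBP1 at 36.5 and 39.6 CPM, a further -2.46 ± 0.06 (adjusted p = 1.72e-15). FST, the activin antagonist follistatin, and SLC38A2, an amino acid transporter, both named after their values were seen, fell further by 1.85 and 0.88 on the log2 scale. The 3 called genes of the ERK feedback list were higher at 240 min than at 10 and 30 min. SPRY4 was at 52.5 and 58 CPM, within or above its earlier range, DUSP6 at 114.5 and 117.2 CPM, still below it, and IER3 at 51.5 and 58.7 CPM, above it. From the later side these were log2 fold changes of 0.71 ± 0.06, 0.34 ± 0.05 and 1.36 ± 0.07, each with an adjusted p under 0.05. Members of that list not called in the pooled comparison included ETV5 and SPRED2, which were lower at 240 min than on the later side, at log2 fold changes of -0.54 ± 0.05 and -0.38 ± 0.04 (adjusted p = 1.52e-08 and 2.53e-07). HNRNPU-AS1 stood at 26.2 and 26.0 CPM, above every library of 0 and 5 min.

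**Figure D4:**
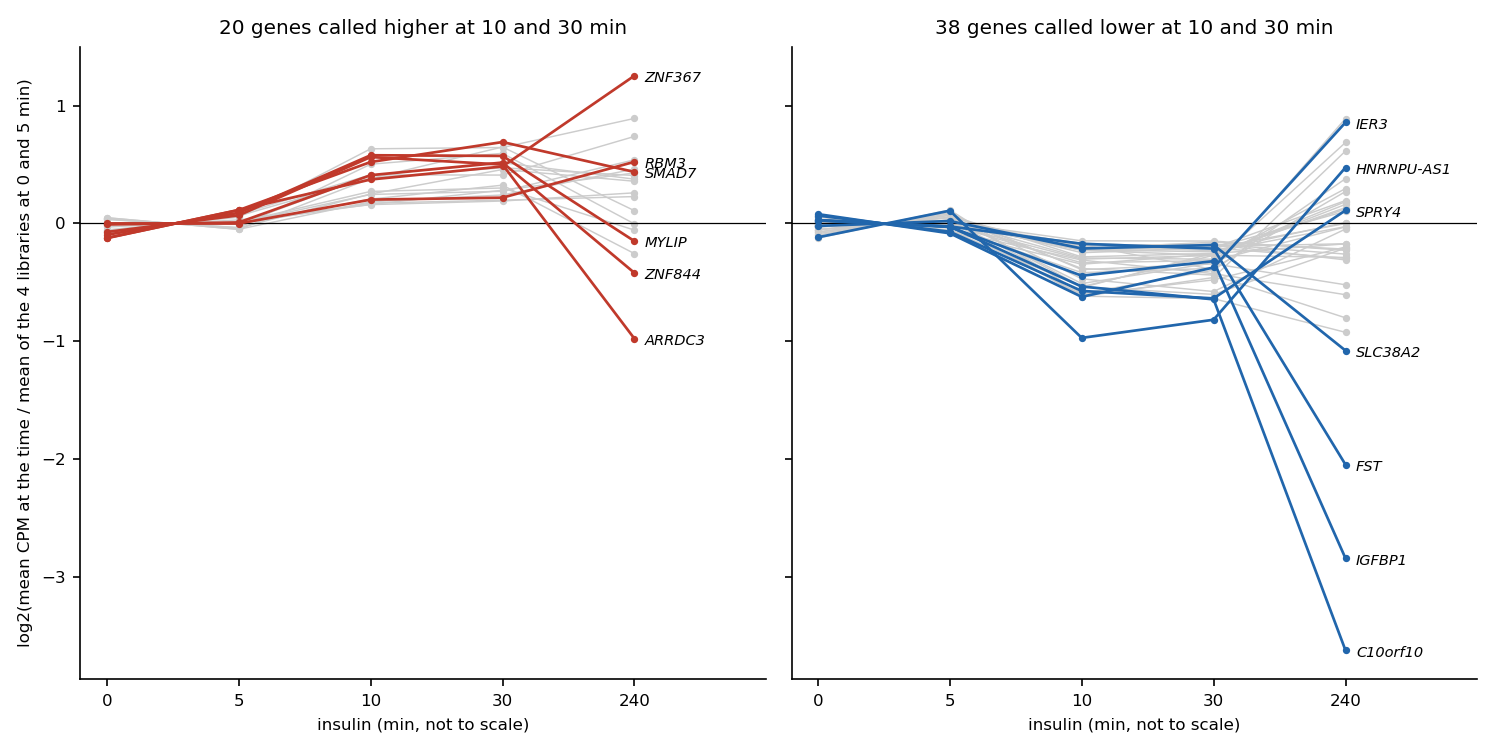
Mean level at each time relative to the 4 libraries of 0 and 5 min (vertical axis, log2) by minutes of insulin (horizontal axis, not to scale) for the 20 genes that rose (left, coloured lines named) and the 38 that fell (right), with the other genes in grey. The lines are spread widest at 240 min, from C10orf10, the lowest, to ZNF367, the highest.

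Within the sides few genes were called between times, but low unadjusted p-values were common between 5 and 0 min. There edgeR called 0 genes, with 1976 at an unadjusted p under 0.05 in the model of 5 times, more than the 1097 of the pooled comparison. DESeq2 called 1 gene, the likelihood ratio test 19, and edgeR 22 without 5 min replicate 1. Of the 58 changed genes, 4 had an unadjusted p under 0.05 there. Between 30 and 10 min EGR1 alone of 13852 genes was called (0.00722%), at a log2 fold change of 1.47 ± 0.13 (adjusted p = 7.73e-06), and 541 genes had an unadjusted p under 0.05, 8 of the 58 changed genes among them. CCL20 and IER3 were 2 of those 8, with 30 min above 10 min by 0.29 and 0.25 on the log2 scale and no call after adjustment. A p that misses the threshold does not show that these times were alike.

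The scaling of the counts changed how many rises were called. With ERCC totals as the scale the median of all genes was -0.18 instead of 0.0044 and 18 of the 38 genes that fell were still called. All 38 stayed below 0. Of the 20 genes that rose, 19 stayed above 0 and SRSF6 did not, with ID1 at 0.36, SMAD7 at 0.42 and ARRDC3 at 0.35, each at an adjusted p of 0.395. Without 10 min replicate 2, which had the highest spike-in share, the ERCC median was -0.08, with 2 genes called higher and 25 lower. The summed hepatocyte markers overlapped between the sides. Of 15, 13 had a log2 fold change below 0, beside 6334 of all 13398 genes tested, with 0 called and a median of -0.09. Their summed levels were 81362 to 89909 CPM on the earlier side and 74169 to 85685 CPM on the later side. Alpha-fetoprotein (AFP) was at 4852 ± 413 against 4012 ± 431 CPM. The summed markers of other cell types, made up mostly of LYZ, were at 5872 to 6461 CPM and 5235 to 5574 CPM. The part of the spike-in share and of these markers in the calls was not tested. All these libraries are bulk samples of the HepG2 line. In them, fewer cells expressing a gene and less of its RNA per cell cannot be told apart.

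**Figure D5:**
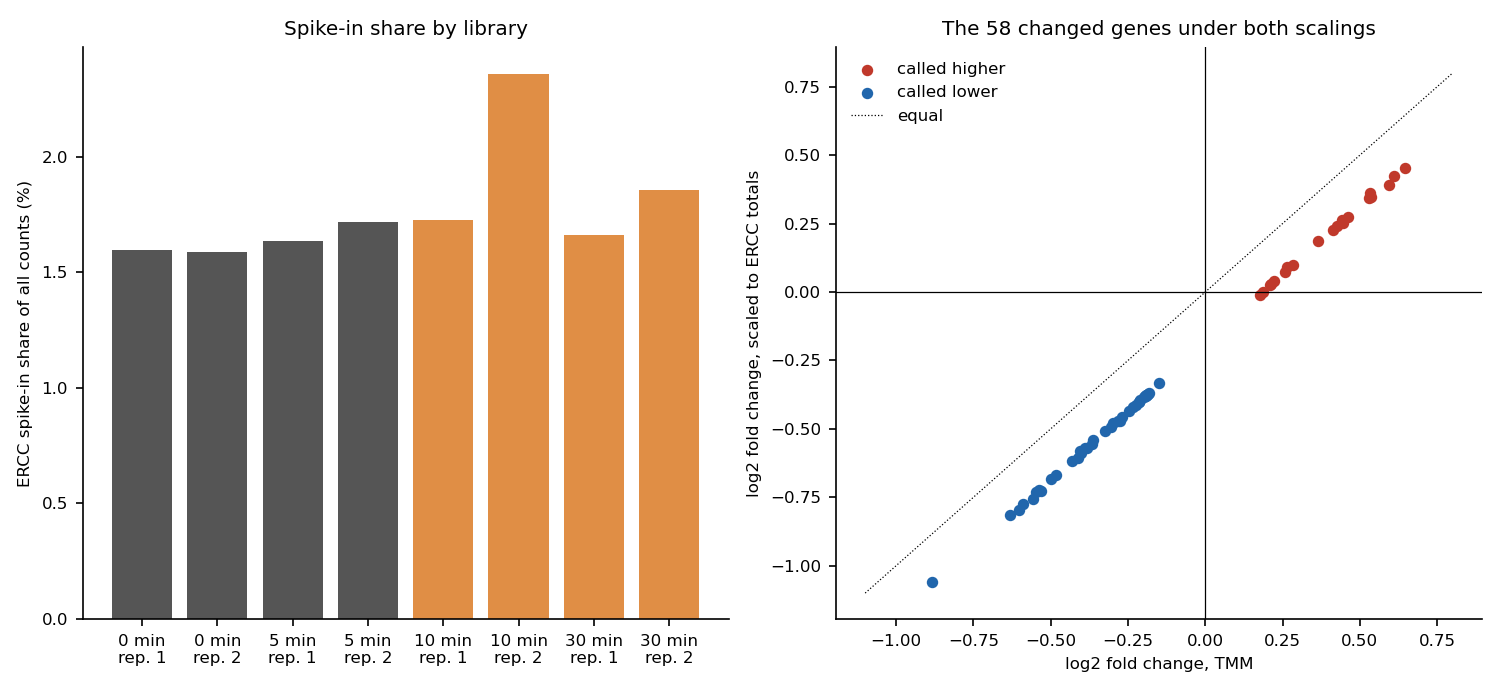
Left, the ERCC share of all counts in each of the 8 libraries (vertical axis, %), dark for 0 and 5 min and orange for 10 and 30 min, with 10 min replicate 2 highest at 2.36%. Right, the log2 fold change of the 58 changed genes with TMM (horizontal axis) and with ERCC scaling (vertical axis), where every point lies below the dotted line of equal values.

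Insulin receptor (IR) peaks from the 1 IR ChIP-seq library of the series lay within 5 kb of the body of 4 of the 20 genes that rose and 9 of the 38 that fell (23.7%), beside 16.1% of all genes tested. The library is of insulin-stimulated HepG2 cells and has no replicate. Peaks overlapped the listed start of LINC00673, ZNF566, CCL20 (chromosome 2, 228678127 to 228678582) and CTGF (chromosome 6, 132272251 to 132272773). In DUSP6 a peak lay 797 bases from the start (chromosome 12, 89747433 to 89748008), all on hg19. Peaks lay nearer, at 64 to 294 bases, in C16orf72, GDF15, DUSP16, MIDN and ZFX. By peak score, out of 1971 peaks, those of LINC00673, ZNF566, CCL20, CTGF and DUSP6 ranked 462, 511, 812, 1594 and 1654. H3F3B had a peak ranked 19, at 4420 bases from its start, which the authors' HOMER annotation places at the start of MIR4738. ID1 had a peak 3243 bases from its start that ranked 620, annotated as intergenic with MIR3193 as its gene. The peaks given for LINC00673, ZNF566, GDF15, DUSP16 and ZFX are also annotated to other genes.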

How the data were processed

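The authors trimmed reads with Trim Galore 0.6.4, aligned them to hg19 with STAR 2.6.1d and counted them on genes with featureCounts 1.6.4 as reverse-stranded in the nf-core pipeline, and deposited the raw counts. They marked duplicates, and no removal is stated. The authors also deposited StringTie abundances in TPM, and IR ChIP-seq peaks (BWA 0.7.17-r1188, MACS2 2.2.7.1) with a HOMER table in which each peak has a score. Versions are printed only where the submitters' processing notes give them. The labels describe DNA extraction for the RNA libraries and RNA extraction for the ChIP libraries, whereas the paper's methods give stranded RNA libraries for RNA-seq.

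Counts of 26364 genes were analysed here with edgeR 4.0.16 in R 4.3.3 (TMM, filterByExpr with the sides as groups, quasi-likelihood test, Benjamini-Hochberg adjustment over 13398 genes, threshold 0.05). The 92 spike-in rows, with 1.59% to 2.36% of counts, entered neither library sizes nor tests. Comparisons within sides and with 240 min used 1 model of 5 times over 10 libraries (13852 genes). Standard errors were taken from the fold changes with their F statistics. Replicates of a time differed beyond sampling noise (chi-square per degree of freedom 2.87 to 6.51), so none were merged. The edgeR steps were tested on simulated data. That excess holds over all genes together. For single genes, counting error at 20437471 or more counts can be as large as the spread between libraries of a side, above all at low CPM.

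Named genes are the 12 largest rises and 12 largest falls among called genes averaging 5 CPM or more, with no overlap of the sides, called members of the lists, and INSR, IRS2, FASN, PCK1 and EGR1. Any further gene was picked once its values had been seen. The values of 1 gene under this rule are not reported here. The comparison, gene lists, tests and naming rule were chosen with earlier results of these data known. Lists were described by counts and medians. Alternatives were DESeq2 1.42.0, the likelihood ratio test, other filters (none, or at least 10 counts in every library), RLE, upper-quartile and ERCC scaling, thinning to the smallest library, limma 3.58.1 on TPM with a pseudocount of 1 or 0.1, a replicate block, time as groups, and leaving out times or libraries. The following alternatives were chosen after seeing the data, namely leaving out 0 min replicate 2 and 10 min replicate 2 together, and ERCC scaling without 10 min replicate 2. The ChIP input had no file to analyse here. Sequences, motifs and peaks were handled with Python 3.11.15, and RefSeq symbols were matched through synonyms.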

Additional observations from a re-analysis of the deposited data

Results flagged for a closer look

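In 4 of the 62 groups of 4 libraries examined, 1 library stood far from the other 3 by Dixon's criterion, and chance alone marks about 1 group in 20. ZNF367 read 12.8 CPM in 5 min replicate 2, where the other libraries of 0 and 5 min read 9.68 to 10.1 CPM. ZNF703 read 28.8 CPM in 0 min replicate 1 against 25.3 to 25.8 CPM, ZNF566 read 10.8 CPM in 0 min replicate 1 against 12.2 to 12.4 CPM, and PCK1 read 12.6 CPM in 0 min replicate 1 against 11.7 to 11.8 CPM. ZNF367 passed in 2, ZNF703 in 4 and ZNF566 in 2 of the 8 fits that left out 1 library.

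EGR1 differed between the times pooled on the later side, with 30 min above 10 min by 1.47 on the log2 scale. The test of that difference in edgeR gave an adjusted p of 7.73e-06, and both 30 min libraries lay above both 10 min libraries.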

How the results depend on the processing

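All 58 changed genes kept their direction under every alternative but ERCC scaling, where SRSF6 went to -0.0097, and EGR1, not called, went to -0.57 without the 30 min libraries. The causes were not tested. The changed genes were called on these same libraries, and in 57 of them the sides did not overlap. Leaving out libraries or times could hardly turn a direction, so the kept directions are no separate result. Against 58 changed genes (20 higher, 38 lower), the numbers were 95 (35, 60) with DESeq2, 143 (48, 95) with the likelihood ratio test, 166 (52, 114) without a filter, 24 (0, 24) with ERCC scaling, 4 (0, 4), 7 (0, 7) and 5 (1, 4) with limma on log2(TPM + 1), on log2(TPM + 0.1) and at a mean TPM of at least 1, and 115 (34, 81) and 104 (29, 75) with time as 4 or 5 groups. They were 100 (15, 85) without the 0 min libraries, 38 (14, 24) without 5 min, 32 (17, 15) without 10 min and 22 (6, 16) without 30 min. Leaving out 1 library gave 29 to 72 changed, 9 to 21 higher and 20 to 55 lower. The alternatives chosen after seeing the data gave 18 (5, 13) without both 0 min replicate 2 and 10 min replicate 2, and 27 (2, 25) with ERCC scaling without the latter. At least 10 counts in every library, RLE, upper-quartile and thinning gave 53 to 59 changed.

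The replicate block gave 57 genes (22 higher, 35 lower), of which 54 were among the 58. Same-numbered libraries of different times had correlations of -0.21 to 0.18 in their deviations, so the numbers do not pair them. The block gave 1 gene for 5 against 0 min and 3 for 30 against 10 min.

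For 5 against 0 min, against 0 genes, there were 1 with DESeq2, 19 with the likelihood ratio test, 144 without a filter, 2 with ERCC scaling, and 7, 24 and 1 with the 3 limma fits, and 0 to 22 leaving out 1 library. For 30 against 10 min, against 1 gene, there were 4, 8, 41, 5, and 5, 20 and 2 in the same order, 2 with thinning, and 1 to 3 leaving out 1 library. For 240 against 10 and 30 min, against 6045 genes, ERCC scaling gave 1856 and leaving out 1 library 4261 to 6093. Depth of at least 20437471 counts limits mainly genes of a few CPM.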

Other observations

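Several list members had sides that did not overlap but missed the threshold, and some were higher at 30 than at 10 min. NFKBIA read 76.4, 77.1, 77.1 and 77.4 CPM on the earlier side, then 82.9 and 82.0 CPM at 10 min and 101.1 and 100.2 CPM at 30 min. ZFP36L2, which binds AU-rich RNA and promotes its decay, read 141.7, 146.6, 151.0 and 157.7 CPM and then 164.5, 159.5, 192.8 and 182.6 CPM, with an adjusted p of 0.0778. OSGIN1, an NRF2 target, was at 11.9 ± 1.23 and 14.5 ± 0.59 CPM and reached 27.8 and 27.5 CPM at 240 min. These genes were picked after their values were seen.

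The lowest log2 fold change of any gene tested, -2.74 ± 1.03 for NBPF25P, came with 4.56 ± 7.71 CPM on the earlier side and 0.608 ± 0.093 CPM on the later side and was not called (adjusted p = 0.456). MIR6087 was at 934 ± 475 and 470.1 ± 227 CPM, with an adjusted p of 0.244.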
